A study of Mus musculus with 6 samples.

Results

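A set of 9 genes of peroxisomal oxidation and acyl-CoA handling was followed in mouse liver: Acnat2, Hao2, Hao1, Acox2, Ehhadh, Acaa1b, Acot3, Cat and Slc27a5, out of 13971 genes that could be named on the array. A probe was assigned to a gene when its accession, without the version, was a RefSeq transcript of that gene. This gave 1 probe each for 8 of the 9, and none for Acaa1b, a peroxisomal thiolase gene, which was not analysed here. The probes were GE102432 for Acnat2, GE37387 for Hao2, GE35533 for Hao1, GE42029 for Acox2, GE40497 for Ehhadh, GE128735 for Acot3, GE35151 for Cat and GE33680 for Slc27a5. Acnat2 and Hao2 were chosen by their measured signal, which was higher in the transgenic livers of these same arrays, so their differences are given as a description, without a test. Of the 8 measured genes, 7 were above the array background on all 6 arrays, and Hao2 was above it on 1 of 3 wild-type and 3 of 3 transgenic arrays.

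The livers came from C57BL/6 mice aged 14 months. There were 3 wild-type mice (replicates 1, 2 and 4) and 3 mice carrying human c-Src behind the mouse metallothionein promoter (replicates 1, 3 and 4). The promoter responds to zinc, which by the study's account was seldom needed, and the labels do not say whether these mice received it or whether the sampled tissue held tumour. Each mouse gave 1 single-colour array, and the study left out a further array of each genotype for low signal.

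Peroxisomes shorten very long, branched and bile acid precursor acyl chains by beta-oxidation. Their flavin oxidases pass electrons straight to oxygen and so make hydrogen peroxide, which catalase breaks down. Acyl-CoA oxidases such as Acox2 take the first step, the bifunctional enzyme encoded by Ehhadh the middle steps, and thiolases the last. Thioesterases such as Acot3 release free acids from the CoA esters, and acyltransferases of the Baat and Acnat family join acyl groups to amino acids. In rodent liver many of these genes, Ehhadh among them, are classic targets of the nuclear receptor PPAR alpha, which binds as a partner of RXR to repeats of the half-site AGGTCA.

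The 250 bases before the gene start are shown for the members with the largest differences (Acnat2, Hao2 and Acot3) and for Cat, whose signal differed little. They come from RefSeq's GRCm38.p6 and read 5′ to 3′ on the gene's strand. Capitals mark any of 6 motifs found on either strand. These are the half-site AGGTCA, the direct repeat of that half-site with 1 base between, the STAT site TTCNNNGAA, the box CCAAT, the GC box GGGCGG and the TATA box TATAAA. The gene Acnat2 lies on the minus strand, and its outer start has the window chr4:49408152-49408401. Hao2 (minus strand) has chr3:98893231-98893480, Acot3 (plus strand) chr12:84051894-84052143 and Cat (minus strand) chr2:103485154-103485403.
Acnat2: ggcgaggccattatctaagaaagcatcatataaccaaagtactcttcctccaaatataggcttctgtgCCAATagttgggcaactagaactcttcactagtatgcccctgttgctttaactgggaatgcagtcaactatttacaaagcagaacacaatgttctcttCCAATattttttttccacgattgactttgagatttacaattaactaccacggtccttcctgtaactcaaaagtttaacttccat
Hao2: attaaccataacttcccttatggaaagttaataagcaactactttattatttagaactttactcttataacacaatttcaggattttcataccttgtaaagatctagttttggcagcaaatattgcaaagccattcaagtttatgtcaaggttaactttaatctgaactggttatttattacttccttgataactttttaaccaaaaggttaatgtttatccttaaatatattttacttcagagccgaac
Acot3: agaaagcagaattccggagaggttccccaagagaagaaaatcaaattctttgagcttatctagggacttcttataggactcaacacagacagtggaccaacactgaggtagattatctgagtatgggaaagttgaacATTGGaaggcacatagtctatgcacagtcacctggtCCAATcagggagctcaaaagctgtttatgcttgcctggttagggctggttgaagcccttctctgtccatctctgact
Cat: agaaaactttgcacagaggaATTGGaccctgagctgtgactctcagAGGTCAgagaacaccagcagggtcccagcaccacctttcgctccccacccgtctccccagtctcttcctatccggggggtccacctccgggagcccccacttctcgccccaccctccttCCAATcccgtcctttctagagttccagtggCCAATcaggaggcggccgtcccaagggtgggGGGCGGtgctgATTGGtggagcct
The Acnat2 window holds CCAAT in either orientation at -182 and -84 and the Acot3 window at -113 and -77, counting the leftmost base of the match back from the start. The Hao2 window holds none of the 6 motifs and is 28.4% GC, with a lower GC content in 0.956% of the 32851 windows of the same length. The Cat window is 62.0% GC and holds AGGTCA at -204, CCAAT at 4 positions and GGGCGG at -24. Cat was the only one of the 8 members in the promoter table with AGGTCA in a window, a half-site found in 14.0% of all windows. The direct repeat was in no member's window and in 0.0335% of all windows, the STAT site in none and in 7.02%, and TATAAA in none and in 12.4%. CCAAT was in a window of 6 of the 8 members, against 33.8% of all windows, and GGGCGG in those of Cat and Ehhadh, against 32.7%. Members with several starts had several windows, which raises their chance of a match, and overlaps between motifs were counted for each.

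Acnat2 signal was 4.19-fold higher in the transgenic livers, in all 3 of them. Hao2 signal was also higher in all 3, by a size that is uncertain because 2 of 3 wild-type arrays were not above background. Acot3 was 3.15-fold higher, with transgenic replicate 4 far above the rest. Hao1 and Acox2 had negative differences, that of Ehhadh was small and positive, and those of Cat and Slc27a5 lay near 0. None of the 6 members outside Acnat2 and Hao2 passed the test across all features, and neither did any of the 34175 features. Acnat2 and Hao2 are given without a test of their own.

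The arrays were checked as follows. Of the 8 hepatocyte marker genes on the list, 7 had a probe and all 7 were above background on all 6 arrays. Signals were compared as quantile-normalized log2 values with limma over 34175 features, and Benjamini-Hochberg adjustment left 0 features higher and 0 lower in transgenic livers at an adjusted p under 0.05 (1493 higher and 931 lower at an unadjusted p under 0.05). The split of those unadjusted calls was 61.6% higher, against 41.8% with median scaling and 45.1% after local correction of bright and dim patches. Transgenic replicate 4 stood apart from the other 5 arrays: of the Y-linked genes, Ddx3y, Uty and Eif2s3y were below background on it alone, while Kdm5d read 9.03 there and 8.32 to 8.74 elsewhere. The summed normalized signal of 8 measured genes with female-biased expression in mouse liver was 45296 on that array, 2075 and 4091 on the other transgenic arrays and 1083 to 1496 in wild-type livers. For 9 measured male-biased genes it was 19741, against 44888 and 50473, and 65156 to 70404 in wild-type. The labels give no sex, and whether sex takes part in the differences below was not tested. The difference of each member is therefore given with and without this array. For the other genes and lists the value without it is given where its direction turned or its size moved by over 1.5 times.

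Acnat2 encodes an acyltransferase of the family that joins acyl groups to amino acids. Its probe read 8.18, 7.95 and 7.55 on the log2 scale in wild-type replicates 1, 2 and 4, and 10.70, 9.79 and 9.38 in transgenic replicates 1, 3 and 4. The deposited signals were 183, 212 and 200 against 1726, 1007 and 851. All 3 transgenic livers lay above all 3 wild-type livers, with 1.21 log2 units between the groups, and replicate 1 was the highest. The group means were 7.89 ± 0.32 and 9.96 ± 0.67 (SD, n = 3 each). They differed by 2.07 ± 0.38 log2 units (limma's SE). Without transgenic replicate 4 the difference was 2.35, and the probe lay in no patch on any array. The neighbouring family genes are Acnat1, which had no matched probe, and Baat, the bile acid conjugating enzyme, which gave -0.01 ± 0.22 (0.13 without transgenic replicate 4). A probe for one member of this family may also read close relatives.

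Acot3 encodes a peroxisomal thioesterase for long acyl-CoAs. It read 8.47, 8.43 and 9.11 in wild-type replicates 1, 2 and 4 and 9.81, 9.19 and 11.97 in transgenic replicates 1, 3 and 4. The groups did not overlap, but the gap was 0.08 log2 units, between wild-type replicate 4 and transgenic replicate 3, and transgenic replicate 4 was far above the rest. The log2 difference was 1.65 ± 0.72 (SE) and did not pass limma's test (adjusted p = 0.69). Permuting the labels of the 6 arrays exactly (two-sided) also left p = 0.1, below which no comparison of 3 with 3 can go. The difference was 0.83 without transgenic replicate 4. The probe lay in a dim patch on wild-type replicate 2 and a bright one on transgenic replicate 4, and local correction gave 1.19.

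Acot3 sits in a cluster of thioesterase genes, and those with a probe differed in their pattern. Acot4, which encodes a peroxisomal thioesterase for dicarboxylic acyl-CoAs, read 7.40 to 7.67 in wild-type and 8.30, 8.05 and 8.91 in transgenic livers, a log2 difference of 0.89 ± 0.27 (limma adjusted p = 0.69). It was 0.65 without transgenic replicate 4 and 0.37 after local correction of a bright patch on that array. Acot5 gave 0.24 ± 0.21 and was above background on 1 wild-type and 3 transgenic arrays. Acot1, a cytosolic member, gave 0.38 ± 0.52, and -0.18 without transgenic replicate 4. The genes of this cluster are close paralogs, so their probes may not separate them.

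Hao2 encodes an oxidase of long-chain 2-hydroxy acids. It read 5.41, 5.0 and 5.37 in wild-type replicates 1, 2 and 4 and 7.35, 7.03 and 9.24 in transgenic replicates 1, 3 and 4. The deposited signals were 27.1, 28.5 and 43.2 against 177, 163 and 772. The wild-type livers were near the array background and the transgenic livers clearly above it, with 1.62 log2 units between the groups. The means were 5.26 ± 0.23 and 7.87 ± 1.19 (SD, n = 3 each). They differed by 2.61 ± 0.59 log2 units (SE), and by 1.93 without transgenic replicate 4. An offset of 50 on the signal lowered it to 1.72, so neither value can be read as an exact fold. Of the 3 nearest measured genes on one side of Hao2, the steroid dehydrogenase gene Hsd3b3 gave -0.57 ± 0.19, and Hsd3b6 and Hsd3b1 were above background on no array. On the other side Wdr3 gave 0.20 ± 0.23, Tbx15 gave -1.83 ± 1.29 with patches on 3 arrays, and Spag17 was above background on no array.

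Hao1, the paralog that encodes glycolate oxidase, had a negative difference where that of Hao2 was positive. It read 10.88, 11.05 and 10.19 in wild-type and 10.56, 10.50 and 9.40 in transgenic livers, in the same order of replicates. The groups overlapped, and transgenic replicate 4 was the lowest of the 6. The log2 difference was -0.55 ± 0.41 (SE; limma adjusted p = 0.74), and -0.18 without that array. Local correction gave -0.30. The difference between Hao1 and Hao2 in response was not tested.

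Acox2, the acyl-CoA oxidase for bile acid intermediates and branched chains, read 10.99, 10.96 and 10.92 in wild-type and 10.74, 10.80 and 10.34 in transgenic livers. Every transgenic value was below every wild-type value, by 0.12 log2 units at the nearest point. The difference was -0.33 ± 0.20 (SE; limma adjusted p = 0.71; exact permutation p = 0.1), and -0.19 without transgenic replicate 4. With median scaling it was -0.59. Ehhadh, the bifunctional enzyme gene, had a positive difference, with 11.004, 10.99 and 10.90 in wild-type and 11.26, 11.005 and 11.49 in transgenic livers. Transgenic replicate 3 was level with wild-type replicate 1, so that the groups parted by 0.0013 log2 units only. The difference was 0.29 ± 0.20 (SE; limma adjusted p = 0.73; exact permutation p = 0.1), 0.17 without transgenic replicate 4, 0.13 after local correction and 0.01 with median scaling.

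Cat encodes catalase, which removes the hydrogen peroxide these oxidases make. It read 14.18, 14.18 and 14.70 in wild-type and 14.35, 14.47 and 14.12 in transgenic livers, and the groups overlapped. The difference was -0.04 ± 0.23 (SE; limma adjusted p = 0.96), a direction that turned to 0.05 without transgenic replicate 4, while median scaling gave -0.50. Slc27a5, which encodes a bile acid and fatty acid CoA ligase of liver that sits outside the peroxisome, read 13.58, 13.68 and 13.79 in wild-type and 13.67, 13.54 and 13.85 in transgenic livers. These ranges overlapped as well. The difference was 0.01 ± 0.19 (SE; limma adjusted p = 0.996), -0.08 without transgenic replicate 4, 0.21 after local correction of patches on wild-type replicates 1 and 4, and -0.40 with median scaling.

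**Figure D1:**
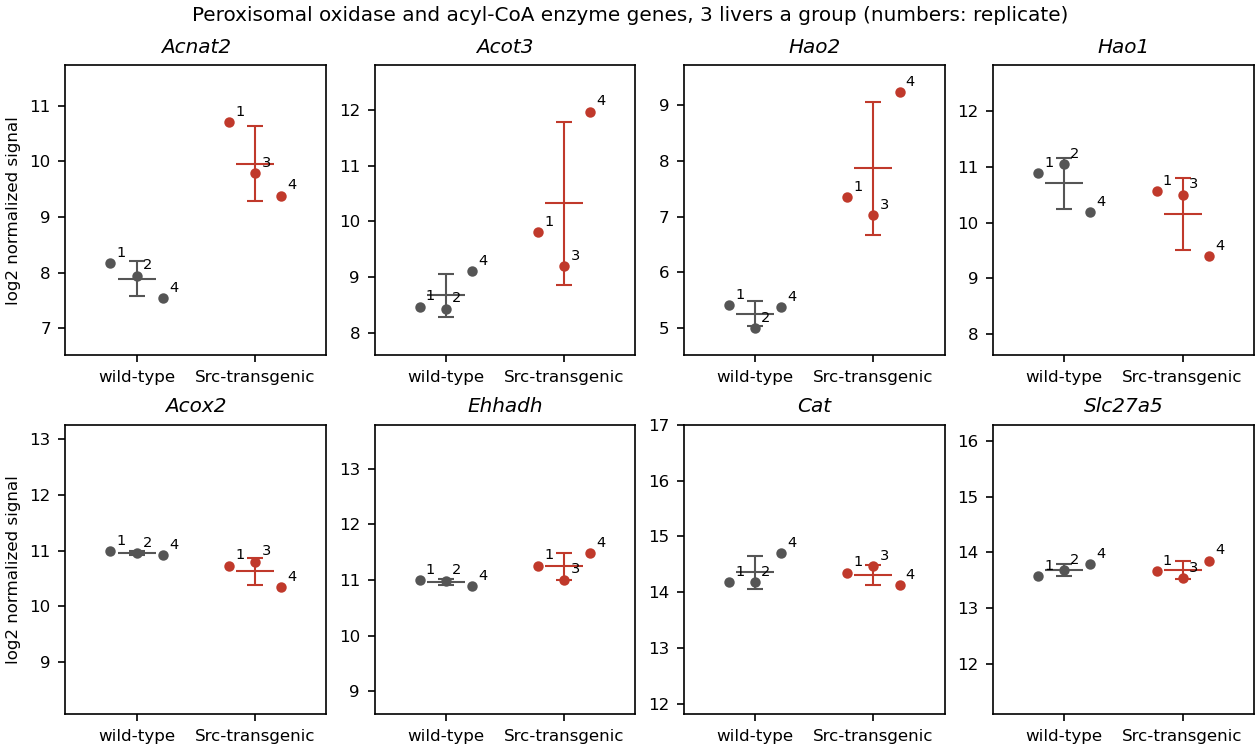
Log2 normalized signal (y axis, each panel spanning the same number of units) of the 8 measured genes in wild-type and Src-transgenic livers. Points are single arrays with their replicate number, and bars are the mean and SD of 3. Acnat2 and Hao2, picked for their rise, separate the groups by over 1 unit, and Acot3 by 0.08. Transgenic replicate 4 is the highest or lowest value for every gene but Acnat2.

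Of the 6 measured members that were not picked for their rise, 0 passed limma's adjusted threshold, as did 0.0% of all features in either direction, and 0 of the 6 had an unadjusted p under 0.05, against 4.37% of features higher and 2.72% lower. For 3 of the 6 the ranges of the groups stood clear of each other, with Acot3 and Ehhadh on the higher side and Acox2 on the lower. Over all features 10.1% were higher and 5.9% lower without overlap. With transgenic replicate 4 left out, Acot3 and Ehhadh were still the 2 on the higher side, against 15.0% of features. The median log2 difference of the 6 was -0.02, beside 0.02 over all features. The set was put together with earlier results of these data in view, so these counts describe it and support nothing beyond it.

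The members did not share 1 pattern among the transgenic livers. Relative to the wild-type mean, Acnat2 lay 2.81, 1.90 and 1.49 log2 units higher in transgenic replicates 1, 3 and 4. For Hao2 the shifts were 2.09, 1.77 and 3.97, and for Acot3 1.14, 0.52 and 3.30. Hao1 had -0.15, -0.21 and -1.31, Acox2 -0.22, -0.15 and -0.61, and Ehhadh 0.29, 0.04 and 0.52. Cat had -0.006, 0.11 and -0.23, and Slc27a5 -0.01, -0.14 and 0.17. Replicate 4 therefore gave the smallest shift of the 3 for Acnat2 and the one farthest from 0 for each of the other measured members. The same array had the shift farthest from 0 for the female-biased genes Cyp2b9, at 5.42 against 4.54 and 2.05, and Cyp3a41a, at 9.30 against 1.04 and 1.97. It did so too for the male-biased genes Hsd3b5, at -4.18 against -2.66 and -0.97, and Slco1a1, at -2.84 against -1.50 and -0.40. Not every gene of these lists followed this order. For the female-biased gene Sult1e1 and the male-biased gene Hsd17b2, replicate 4 gave the smallest shift of the 3. Sult1e1 was above background on no wild-type array and on 2 transgenic arrays. The part of these genes in the shifts of the members was not tested.

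**Figure D2:**
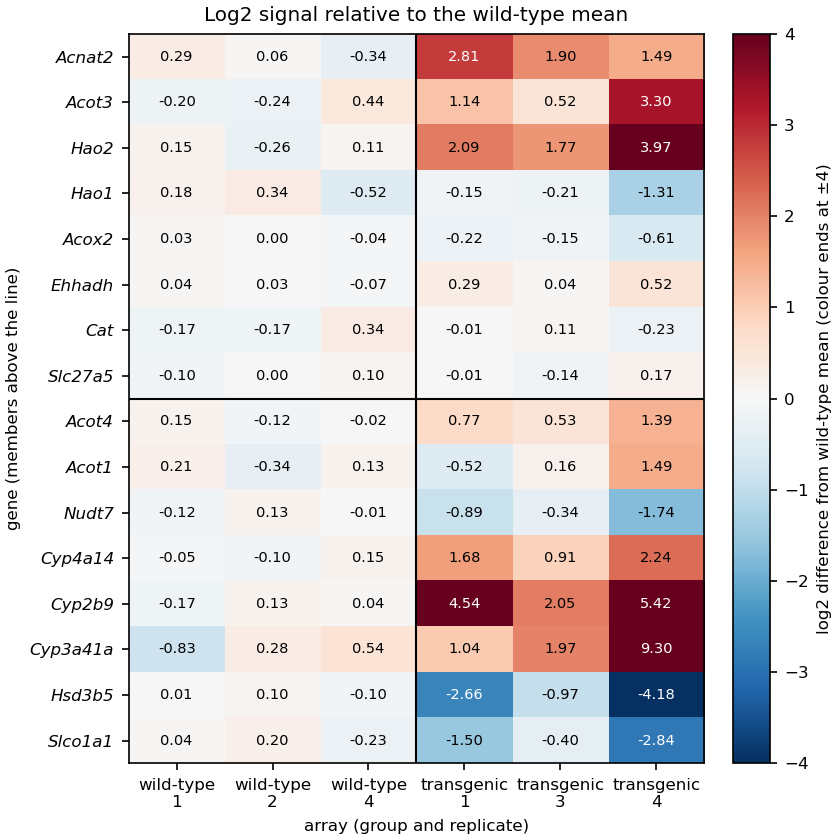
Log2 signal of each gene (rows) on each array (columns) minus its wild-type mean, with the value printed in each cell. Colours end at 4 units either way, so that the 9.30 of Cyp3a41a has the end colour. Below the line are other peroxisomal, PPAR alpha target and sex-biased genes; Acnat2 is highest in transgenic replicate 1, whereas Hao2 and Acot3 are highest in replicate 4.

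Among 10954 other genes above background on at least 3 arrays, the profile nearest to that of Acnat2 over the 6 arrays belonged to Src. Nearness was the root mean squared difference of log2 values, each gene taken relative to its wild-type mean, and was 0.36 for Src. The Src probe, which reads a mouse sequence and may or may not read the human transgene, had 6.65, 7.21 and 6.62 in wild-type and 9.67, 8.48 and 7.71 in transgenic replicates 1, 3 and 4. Next were Tnfrsf12a, a receptor of the tumour necrosis factor family, at 0.42, and the heat shock cochaperone gene Dnajb1 at 0.49. All of these were highest in transgenic replicate 1 and lowest in replicate 4 of that group. For Hao2 the nearest were Piga, at 0.47, and AY074887, at 0.54, both above background on no wild-type array and on 3 of 3 transgenic arrays, and then Acot3 at 0.72. The nearest member to Acnat2 was Hao2, at 1.08. With 6 arrays and so many genes, near profiles are a description, and no test was made.

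**Figure D3:**
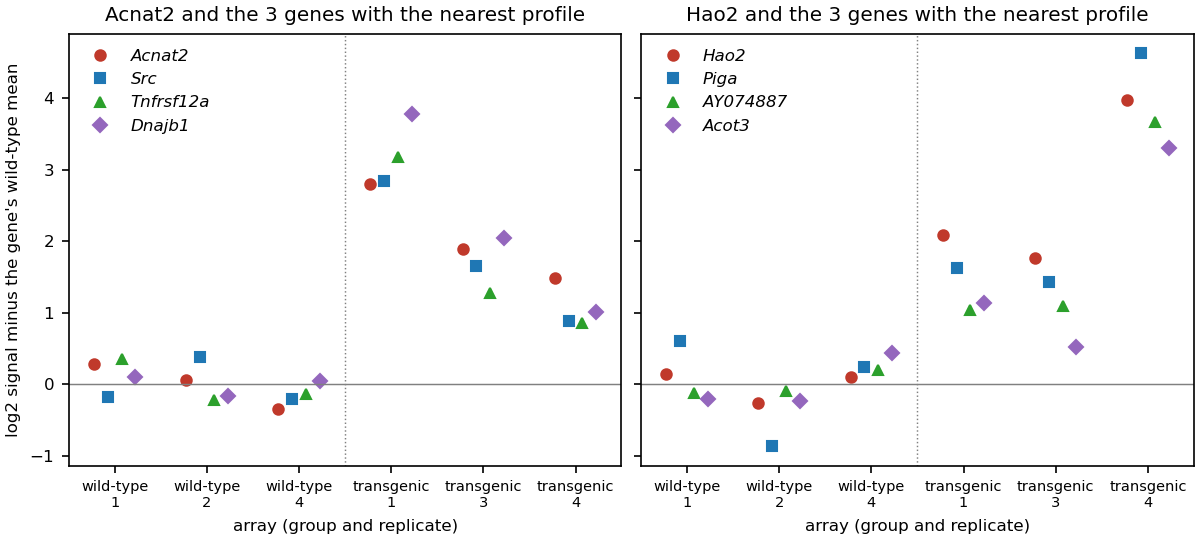
Log2 signal minus the gene's wild-type mean (y axis) on the 6 arrays (x axis) for Acnat2 and for Hao2, each with the 3 genes of the nearest profile. Each symbol is 1 array. The Acnat2 set lies between 0.86 and 3.78 in the transgenic livers with its highest values in replicate 1, and the Hao2 set has its highest values in replicate 4.

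The rest of the peroxisome was described with 7 lists of 60 genes, of which 53 had a probe. Limma called 0 of the 53 after adjustment over all features. The unadjusted p was under 0.05 for 1 with a higher signal, Acot4, and for 4 with a lower one, Acox3, Nudt7, Slc25a17 and Pex26, beside 4.37% of all features higher and 2.72% lower. The differences were positive for 20 of 53, against 51.7% of all features and 45.4% of named genes above background on all 6 arrays. Their median was -0.05, beside -0.03 for those named genes. Of the 53, 44 lay within 0.5 log2 units of 0, as did 72.7% of all features and 84.7% of those named genes. Median scaling left 11 positive, with a median of -0.29, while the median of all features moved from 0.02 to -0.08. Under it 14689 of 34175 features were positive, and 3391 of the 9616 named genes above background on all 6 arrays, whose median was -0.13. The direction of these small values thus depends on the scaling.

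Of the beta-oxidation genes, 6 of 10 had positive differences, with a median of 0.09 (7 of 10 and 0.19 without transgenic replicate 4). Hsd17b4, the other bifunctional enzyme, gave 0.05 ± 0.24 (SE), the thiolase gene Acaa1a 0.26 ± 0.20 and the sterol carrier and thiolase gene Scp2 -0.02 ± 0.22. Median scaling turned Hsd17b4 to -0.23 and Acaa1a to -0.15, and without transgenic replicate 4 Hsd17b4 gave 0.22 and Scp2 0.15. Amacr, the racemase of branched acyl-CoAs, gave -0.31 ± 0.22. The highest was the reductase gene Decr2, at 0.51 ± 0.27, which was 0.01 after correction of a bright patch on transgenic replicate 3. The lowest was Acox3, a branched-chain oxidase, at -0.66 ± 0.26 (limma adjusted p = 0.69), with 6.72 to 7.41 in wild-type and 6.12 to 6.49 in transgenic livers, which did not overlap.

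Thioesterases and acyltransferases other than Acot3 and Acnat2 had 3 of 8 positive differences and a median of -0.02 (4 of 8 and 0.05 without transgenic replicate 4). The carnitine acyltransferase genes Crat and Crot gave 0.41 ± 0.26 and -0.05 ± 0.17 (SE), and the thioesterase gene Acot8 -0.04 ± 0.24. Without transgenic replicate 4 Crat gave 0.26 and Acot8 -0.14. Nudt7, a peroxisomal CoA diphosphatase, was the lowest of all 53 at -0.99 ± 0.37 (limma adjusted p = 0.69). It read 13.71, 13.96 and 13.82 in wild-type and 12.93, 13.49 and 12.09 in transgenic replicates 1, 3 and 4. All transgenic values lay below the wild-type ones and replicate 4 was the lowest, as for Hao1; without it the difference was -0.62. Nudt7 was also on the list of male-biased genes.

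Among the other oxidases 1 of 5 was positive, and their median was -0.07 (-0.04 without transgenic replicate 4). Uox, urate oxidase, gave -0.23 ± 0.21 (-0.10 without it), and Dao, D-amino acid oxidase, was above background on no array. Alpha-oxidation and ether lipid genes ran from -0.28 ± 0.23 for Phyh, the phytanoyl-CoA hydroxylase, to 0.39 ± 0.19 for the lyase gene Hacl1, with 1 of 4 positive. Phyh gave -0.10 without transgenic replicate 4. Other matrix enzymes had 4 of 7 positive (5 of 7 without transgenic replicate 4), with Ephx2, an epoxide hydrolase, at -0.05 ± 0.21 (0.08 without it) and Agxt, which removes the glyoxylate that glycolate oxidase makes, at -0.25 ± 0.27 (-0.49 without transgenic replicate 4). Their ends were Mlycd at -0.55 ± 0.27 and the protease gene Lonp2 at 0.48 ± 0.53, the latter -0.05 after correction of a patch and 0.84 without transgenic replicate 4. In membrane transport 3 of 6 were positive, and 1 of 6 without that array. Slc27a2, the very long-chain acyl-CoA synthetase, gave 0.16 ± 0.22 (0.03 without it), Slc25a17, a carrier of CoA and nucleotides, -0.56 ± 0.20, and Abcd2, a transporter of very long acyl-CoAs, 0.54 ± 0.56 (-0.10 without transgenic replicate 4).

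Peroxins, the proteins that build peroxisomes and import their enzymes, had 2 of 13 positive differences and a median of -0.15. The import receptor genes Pex5 and Pex7 gave -0.35 ± 0.39 and -0.02 ± 0.21 (SE; -0.07 and -0.06 without transgenic replicate 4), and Pex26, which anchors the export complex, was the lowest at -0.75 ± 0.26, with no overlap between the groups. Pex11a, a division factor induced by PPAR alpha ligands, was the highest at 0.34 ± 0.30. Its probe lay in patches on wild-type replicates 1 and 4, and the difference was 0.43 after local correction and 0.06 with median scaling. Ppara itself gave -0.40 ± 0.22, in a patch on 3 arrays, and -0.87 after local correction. Its partner gene Rxra gave 0.17 ± 0.28, which turned to -0.09 without transgenic replicate 4 and to -0.44 after local correction. Of 10 PPAR alpha targets outside the peroxisome, 8 were positive, with a median of 0.29 (0.14 without transgenic replicate 4, and 0.08 with 5 positive under median scaling). Cyp4a14, a fatty acid omega-hydroxylase, gave 1.61 ± 0.36 (limma adjusted p = 0.69), with shifts of 1.67, 0.91 and 2.24 in transgenic replicates 1, 3 and 4. Cyp4a10 gave 0.51 ± 0.35 (0.16 without replicate 4) and Pdk4, above background on 1 array of each group, 0.22 ± 0.60. Cpt1a, the mitochondrial entry step, gave -0.21 ± 0.21, and Fgf21 was the lowest at -0.22 ± 0.30.

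**Figure D4:**
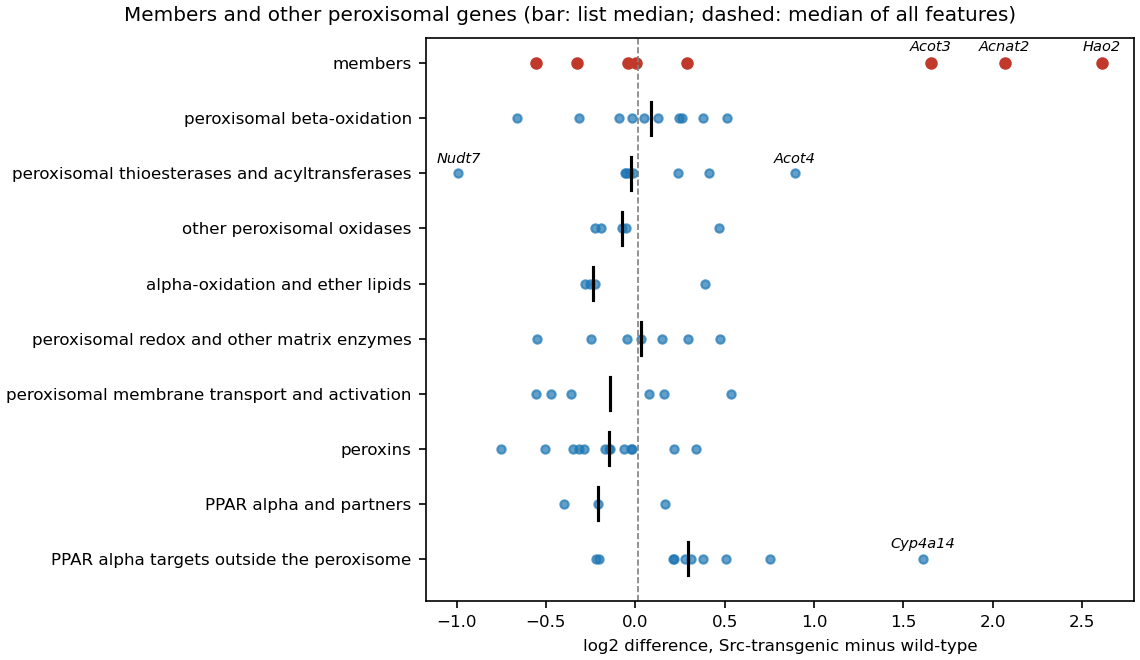
Log2 difference of transgenic minus wild-type livers (x axis) for the 8 measured members (top row) and for the genes of 9 lists (other rows). Each point is 1 gene, the short bar is the list median, and the dashed line is the median of all features at 0.02. Acnat2, Hao2 and Acot3 lie to the right of all genes of the 7 peroxisomal lists, whose highest value is 0.89. For Acnat2 and Hao2 this place follows from their having been picked for their rise.

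Markers of other cell types were measured beside the members. Hepatocyte markers had 4 of 7 positive differences and a median of 0.07, with summed normalized signals of 165806 to 181337 in wild-type and 162324 to 183896 in transgenic livers. Under median scaling 1 of 7 was positive and the median was -0.62, so how level these markers were depends on the scaling. The deposited signal of Alb was 30294 to 35937 in wild-type and 29245 to 32261 in transgenic livers, although array medians were higher in transgenic livers. Hnf4a, a dimmer marker, read 847 to 962 and 1340 to 2077. Whether the brightest probes neared the upper limit of the scan was not tested. Kupffer cell and macrophage markers had 3 of 4 positive (sums 2920 to 3632 and 2723 to 5182, highest on transgenic replicate 4), but 0 of 4 without that array, where their median went from 0.11 to -0.21. Among the other types, cholangiocyte markers had 1 of 4 positive (834 to 1175 and 817 to 1239), endothelial markers 1 of 4 (2681 to 3124 and 2412 to 3123) and stellate cell markers 1 of 5 (2072 to 2968 and 2053 to 2797; 0 of 5 without transgenic replicate 4). Lymphocyte markers had 2 of 6 positive (1117 to 1221 and 1094 to 1824) and adipocyte markers 0 of 2 (49.9 to 352 and 35.1 to 46.2). The 352 rested on Lep in wild-type replicate 4, with a deposited signal of 331 against 4.85 and 13.2 in replicates 1 and 2. Lep was above background on that array only, and Adipoq on 1 array of each group. Hao2 is also expressed in kidney, and of the kidney markers Slc34a1 gave 0.19 ± 0.48 and Umod 1.14 ± 0.37 (SE), with sums of 137 to 297 and 175 to 374, and -0.08 for Slc34a1 without transgenic replicate 4. Umod was above background on 1 wild-type and 3 transgenic arrays, so the size of its difference is uncertain. Local correction lowered it to 0.78. In bulk tissue fewer cells of a type and less RNA per cell cannot be told apart. The part of other cell types in the differences of the members was not tested.

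**Figure D5:**
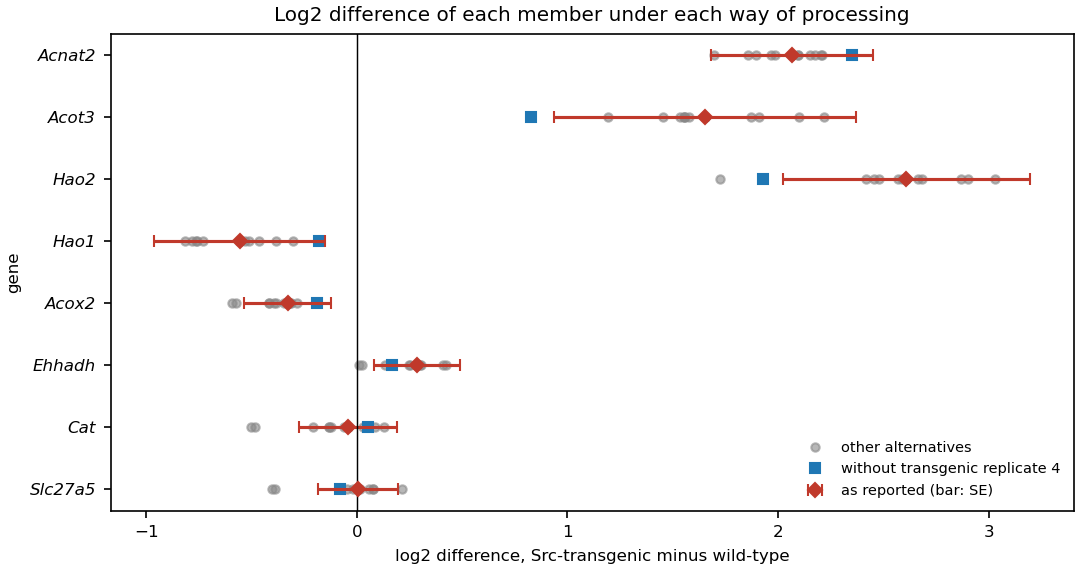
Log2 difference (x axis) of each measured member as reported, with its SE, without transgenic replicate 4, and under the other alternatives. Acnat2 and Hao2, picked for their rise, and Acot3 stay above 0.8 under all alternatives in which they were measured. Hao1 and Acox2 stay below 0 and Ehhadh above it, and Cat and Slc27a5 lie on both sides of 0.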

How the data were processed

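RNA was extracted from liver tissue, its poly(A) fraction amplified to biotin-labelled cRNA, and arrays stained with an Alexa-647 conjugate, per the labels' protocols. The deposited intensity of a spot is its signal with background taken out, per the file headers, and the sources used here give no image software. The authors' value table is that intensity divided by 1 constant per array (equal within 1.4e-07), which the headers call a median. The column was used as given, after leaving out 620 control spots. Median signals of the 34967 mouse probes were 53.8 to 93.4 on wild-type and 94.8 to 117 on transgenic arrays, and 62.6% to 71.7% were above background, set for each array from 570 control spots (their median and 3 scaled absolute deviations from it). Precision is limited by having 3 arrays a genotype.

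Values under an array's 1st percentile of positive signals (4.72 to 5.75) were raised to it, taken to log2 and quantile normalized. RefSeq GRCm38.p6 named 14763 probes, and the brightest probe stood for a gene. The genotypes were tested against each other by limma 3.58.1 under R 4.3.3 (two-sided, Benjamini-Hochberg over 34175 features), tested on simulated data first. The p-values set the difference between genotypes against the spread between these mice, which limma moderates with all features. Each mouse gave 1 array, so differences between arrays are part of that spread. A patch is where the median deviation of spots within 4 rows and columns exceeds 0.5 log2 units. Local correction subtracts that median. The labels number the mice separately, and the numbers 1 and 4 occur in both genotypes without a stated pairing. Genes named are the members, names fixed in the lists (some are not reported here), ends of lists, checks of the arrays and the 3 nearest profiles. Members and lists were chosen with earlier results of these data known. Gene order neighbours, the motifs and the promoters printed were chosen after values were seen. Alternatives were other scalings, floors, filters, spread models, array weights, the authors' table, patch correction, every probe alone, a replicate block and each array left out. Figures used matplotlib 3.10.9.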

Additional observations from a re-analysis of the deposited data

How the results depend on the processing

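Acnat2, Acot3, Hao1, Acox2 and Ehhadh kept their direction under all 17 alternatives, and Hao2 under the 16 in which it was measured. Requiring a signal above background on all 6 arrays removes Hao2. Acnat2 and Hao2 were picked for their rise on these same arrays, so their kept direction describes them and supports nothing. Some alternatives, such as the spread model and the authors' table, left every member's difference as it was. The ranges were 1.70 to 2.35 for Acnat2, 1.72 to 3.03 for Hao2, 0.83 to 2.22 for Acot3, -0.81 to -0.18 for Hao1, -0.59 to -0.19 for Acox2 and 0.01 to 0.42 for Ehhadh. Cat, at -0.04, turned to 0.031 with array weights, 0.088 after local correction, 0.13 without wild-type replicate 4 and 0.05 without transgenic replicate 4. Slc27a5, at 0.01, turned to -0.40 with median scaling, -0.39 with 75th percentile scaling, -0.018 with array weights, -0.05 without wild-type replicate 1 and -0.078 without transgenic replicate 4. With single arrays left out Cat ran from -0.129 to 0.128 and Slc27a5 from -0.078 to 0.079. The cause was not tested. Over all features limma called 0 higher and 0 lower, 1 higher when every probe was a feature, 0 to 1 higher with single arrays left out (1 without transgenic replicate 4) and 0 to 1 lower (1 without wild-type replicate 1). Under every alternative 0 of the 6 members not picked for their rise and 0 genes of the 7 peroxisomal lists were called. With the replicate number as a block, which only the numbers 1 and 4 inform, 0 features were called and the differences were 2.10 for Acot3, 0.42 for Ehhadh, -0.56 for Hao1 and -0.42 for Acox2. Deviations of same-numbered arrays correlated at 0.06 for both numbers, below the 0.1 taken to mark a pairing. These were still the highest among all pairs of a wild-type and a transgenic array, the rest running from -0.07 to 0.02. Whether arrays of the same number share a batch was not tested. Hao2 is limited by its wild-type signal near background, where an offset of 50 moves it most.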
